A study of Mus musculus with 20 samples.

Results

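The transcripts of 10 genes of the NRF2 pathway and its phase II targets were followed in the adult mouse hippocampus after gestational exposure to nanosized particulate matter of urban air (nPM). The 10 genes were the regulator Nfe2l2, its repressor Keap1, and the targets Hmox1, Nqo1, Gclc, Gclm, Gsr, Txnrd1, Srxn1 and Slc7a11. They were picked out by gene symbol from the 48709 genes of the count table, with no threshold on their values. Each symbol matched 1 gene, and all 10 passed the filter on low counts, which kept 19797 genes.

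The samples were right-hemisphere hippocampi of 20 young adult C57BL/6J mice (C57BL/6 in the labels), with 5 mice of each sex per exposure. Dams of the nPM mice breathed re-aerosolized nPM in sessions of 5 h, on 3 days of each week, from gestational day 2 until birth, and dams of the controls breathed filtered air in parallel. The concentration was 300, given as μg/m3 in the methods and as mg/m3 in the sample labels. The labels name no engineered allele, and the offspring themselves were not exposed after birth. The mice of each exposure came from 5 litters, so some may have been siblings, and the labels do not say which. By the labels, females were 17.71 to 18.29 weeks old and males 18.57 to 19.14 weeks old. The methods also state that male offspring received injections of EdU, a label of dividing cells, before tissue collection. They add that all animals were injected, and do not say whether this includes females. Sex and age therefore cannot be told apart in these samples, nor can this injection if only males received it.

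NRF2, encoded by Nfe2l2, is a transcription factor that switches on genes of antioxidant defence and detoxication. In unstressed cells KEAP1 holds NRF2 and hands it to a ubiquitin ligase for degradation, so the level of Nfe2l2 mRNA alone says little about NRF2 protein. Oxidants and electrophiles modify cysteines of KEAP1, and NRF2 then accumulates, pairs with small MAF proteins and binds antioxidant response elements near its targets. In brain the pathway is known mainly from astrocytes, which supply neurons with precursors of glutathione.

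Total counts were 19092067 to 38663408 per sample, with 19092067 to 35480715 in females and 28026459 to 38663408 in males. Markers of hippocampal pyramidal and granule neurons were present in every sample (9 of 10 markers found, summed level 442 to 698 CPM, which are counts scaled to library size). Some libraries stood apart in the choroid plexus marker Ttr, the thyroxine carrier transthyretin, which ranged from 10.7 to 7409 CPM. In 7 libraries Ttr was over 1000 CPM (nPM females 1 and 5, control males 2, 4 and 5, and nPM males 2 and 3), and in the other 13 it was at most 736 CPM. Results that move with these libraries are given below with and without them. The 1000 CPM limit was set after the values were seen.

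Read per length, the enzymes of glutathione and thioredoxin chemistry were the most abundant of the 10 transcripts. The mean over 20 samples was 22.2 RPKM for Srxn1, 17.5 for Gclc and 14.5 for Txnrd1 (RPKM is the read count divided by exon length and by library size). Gclm (9.13 RPKM), Gsr (8.85 RPKM) and Keap1 (8.46 RPKM) lay close together, and Slc7a11 followed with 6.52 RPKM. The regulator Nfe2l2 stood at 4.42 RPKM, above Nqo1 (3.64 RPKM) and Hmox1 (1.90 RPKM). Neighbours in this order were not always separated within a sample. Gclm exceeded Gsr in 13 of 20 samples, Gsr exceeded Keap1 in 14, and Nfe2l2 exceeded Nqo1 in 15, whereas Gclc exceeded Txnrd1 in 20.

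The genes also differed in how much they varied. From here on, levels within a gene are CPM after TMM scaling. Nqo1 spanned 4.20-fold from the lowest to the highest of the 20 samples (2.98 to 12.5 CPM), and Slc7a11 spanned 2.53-fold (55.7 to 141 CPM). Txnrd1, the cytosolic thioredoxin reductase, spanned 1.26-fold (45.1 to 56.7 CPM) and varied least. Hmox1 ranged from 2.39 to 4.34 CPM, Gsr from 21.4 to 29.6 CPM and Keap1 from 32.9 to 43.6 CPM. The coefficient of variation over all samples was 49.4% for Nqo1, 30.1% for Slc7a11, 17.5% for Nfe2l2 and 6.04% for Txnrd1. Nqo1 and Hmox1 rest on the fewest reads, with 57 to 433 counts and 52 to 166 counts per sample.

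**Figure D1:**
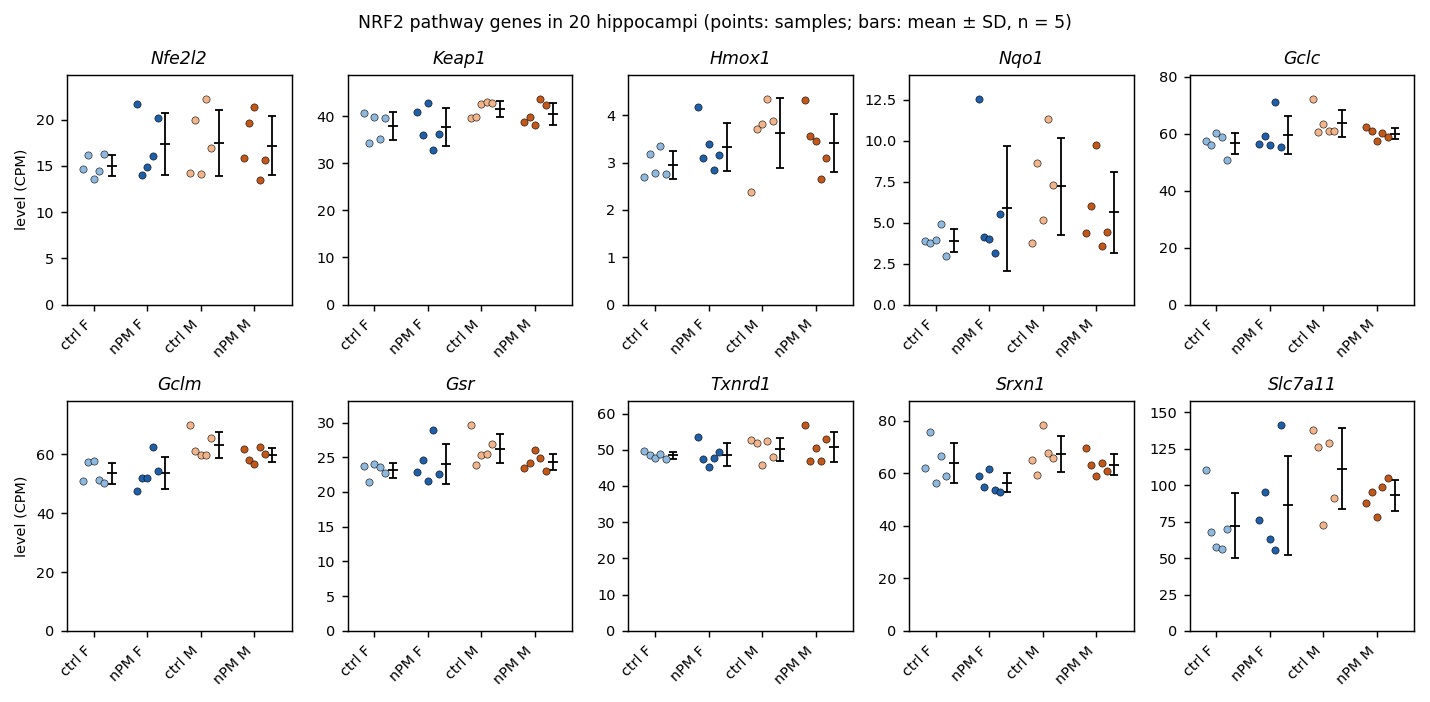
Level of each NRF2 pathway gene in CPM (vertical axes, starting at 0) in control females (ctrl F), nPM females (nPM F), control males (ctrl M) and nPM males (nPM M). Points are samples and bars are means ± SD (n = 5); the nPM and control points of each sex overlap for all 10 genes, and Nqo1 and Slc7a11 scatter most.

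The first comparison asked whether gestational nPM left a lasting change in this pathway, with both sexes together and sex as a covariate. None of the 10 genes reached p under 0.005 in limma-voom, a weighted linear model of log2 CPM fitted to every gene, where 0.141% of all genes did. Srxn1 alone reached p under 0.05, against 2.10% of all genes. The median log2 fold change of the 10 genes was -0.015, and that of all genes was -0.0059. No gene of the whole table had an adjusted p under 0.05.

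Srxn1 (chr2:152105516-152111376, plus strand, mm10) encodes sulfiredoxin, which restores peroxiredoxins that have been over-oxidized. In females it stood at 61.8, 75.8, 56.3, 66.6 and 59.1 CPM in controls and at 58.9, 54.8, 61.7, 53.7 and 53.0 CPM after nPM. Male controls had 65.1, 59.3, 78.2, 67.8 and 65.6 CPM, and nPM males had 69.4, 63.1, 58.9, 63.9 and 60.9 CPM. The highest sample of each sex was a control, and the groups overlapped in both sexes. The log2 fold change with nPM was -0.13 (SE 0.058, 95% interval -0.25 to -0.0072, limma-voom p = 0.0387, n = 20, adjusted p = 0.9998). Within sexes it was -0.17 in females (exact permutation p = 0.0556) and -0.08 in males (exact permutation p = 0.302). Without the 7 libraries high in Ttr it was -0.15 (limma-voom p = 0.0814, n = 13). Leaving out single libraries gave p from 0.0146 to 0.0839 (limma-voom, n = 19), and p was above 0.05 without any 1 of control females 2 and 4, control male 3, nPM females 2, 4 and 5, and nPM males 3 and 5. In females alone it was -0.22 without control female 3 (limma-voom p = 0.0365, where the exact permutation test with all 10 females gave p = 0.0556).

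The 250 bases before the RefSeq start of Srxn1 (GRCm38.p6, the same build as mm10) are shown because this gene had the smallest p with nPM. Capitals mark matches to the antioxidant response element core. The core was searched on both strands as TGACNNNGC and TGAGNNNGC, which cannot match the same 9 bases in the same orientation.
Srxn1 promoter, chr2:152105274-152105523, plus strand: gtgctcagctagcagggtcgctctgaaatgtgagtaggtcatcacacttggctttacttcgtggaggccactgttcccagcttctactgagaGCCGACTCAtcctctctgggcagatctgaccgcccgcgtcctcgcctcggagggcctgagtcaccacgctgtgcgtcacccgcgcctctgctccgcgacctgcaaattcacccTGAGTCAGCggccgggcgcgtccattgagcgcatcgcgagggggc
The match on the plus strand was TGAGTCAGC, with its first base at -45 from the start. The match on the minus strand was TGAGTCGGC, with its base farthest from the start at -158. Of 32851 RefSeq promoter windows of this length, 10.2% held TGACNNNGC, 14.4% held TGAGNNNGC and 23.0% held at least one of them. Windows were found for 7 of the 10 genes, and 5 of these had a match (Nfe2l2, Gclm, Srxn1, Slc7a11 and 1 of the 3 windows of Txnrd1), while Keap1 and Nqo1 had none in this window. A match is a string of letters and no evidence of binding.

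The other 9 genes were measured with intervals that spanned 0. Nfe2l2 had a log2 fold change of 0.08 (95% interval -0.14 to 0.30) and Keap1 one of -0.02 (-0.12 to 0.086). For the glutathione genes, Gclc and Gclm encode the catalytic and the modifier subunit of glutamate-cysteine ligase, the rate-limiting enzyme of glutathione synthesis, and Slc7a11 the cystine importer that feeds it. Their log2 fold changes were -0.01 (-0.12 to 0.095), -0.04 (-0.14 to 0.059) and -0.01 (-0.34 to 0.33). Gsr (chr8:33652523-33698163, plus strand), which regenerates reduced glutathione, had -0.04 (-0.15 to 0.072), and Txnrd1 (chr10:82859206-82897724, plus strand) had 0.01 (-0.079 to 0.10). Hmox1 (chr8:75093621-75100589, plus strand), the inducible heme oxygenase, had 0.03 (-0.21 to 0.28), and Nqo1 had -0.04 (-0.57 to 0.48). The intervals of Keap1, Gclc, Gclm, Gsr and Txnrd1 were therefore narrow, whereas that of Nqo1 reached from 0.676-fold to 1.39-fold.

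**Figure D2:**
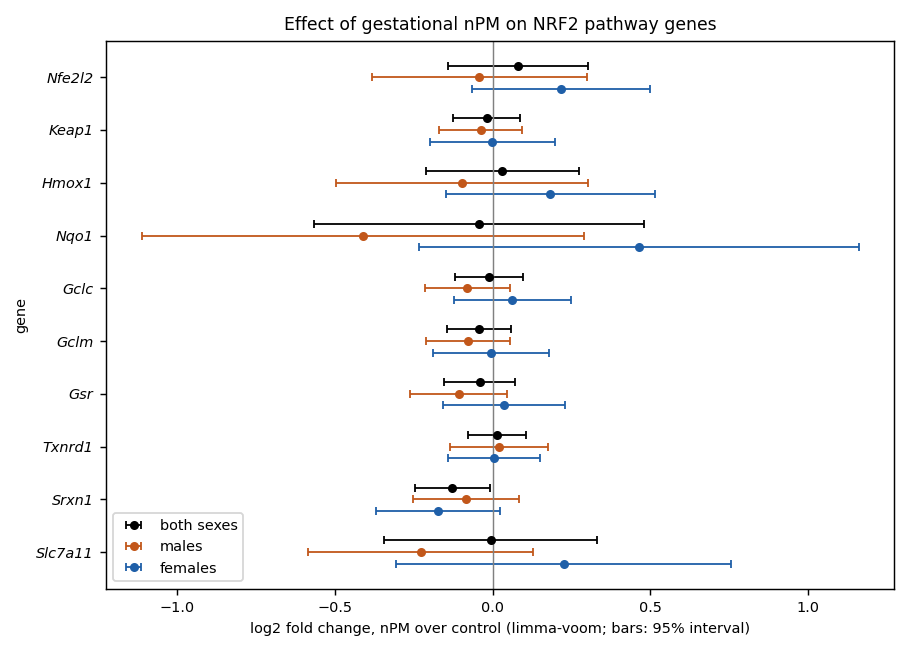
Log2 fold change of nPM over control (horizontal axis) for each gene in both sexes (black), males (orange) and females (blue), with 95% intervals from limma-voom. The interval of Srxn1 in both sexes ends at -0.0072, and every other interval crosses 0.

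The sexes were then taken apart. In males, 9 of the 10 log2 fold changes were negative, with a median of -0.082 against -0.0013 over all genes. In females, 7 were positive, with a median of 0.049 against -0.011. Of all genes, 49.6% had a positive change in males and 45.9% in females. Under other settings the sign changed for 4 of the 10 genes in males and for 6 in females at least once, so these counts of directions are loose. No member reached p under 0.05 in either sex by limma-voom, where 4.28% of all genes did in males and 2.00% in females, and none reached p under 0.005 (0.207% and 0.0859% of all genes). By exact permutation of 5 against 5, which cannot go below p = 0.00794, none of the 10 was under 0.05 (4.43% of all genes in males and 2.31% in females). The smallest exact p was 0.0952 in males, for Gclc, and 0.0556 in females, for Srxn1. No member separated nPM from control samples completely, as 0.662% of all genes did in males and 0.349% in females.

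The interaction tested whether the response differed between males and females. For 8 of the 10 genes the male response was the lower one, with a median difference of -0.14 on the log2 scale against 0.013 over all genes. Of all genes, 52.5% had a positive difference, with the higher response in males. None of the 10 passed p under 0.005 or p under 0.05 by limma-voom, where 0.217% and 3.79% of all genes did. The largest difference was that of Nqo1, -0.87 (SE 0.49, limma-voom p = 0.0913, n = 20). It was -1.07 without control male 1 (limma-voom p = 0.0337, n = 19) and -1.11 without nPM male 3 (limma-voom p = 0.0304, n = 19).

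Nqo1 (chr8:107388225-107403206, minus strand) encodes a quinone reductase that uses NADH or NADPH. In females it stood at 3.87, 3.74, 3.93, 4.92 and 2.98 CPM in controls and at 12.5, 4.15, 4.03, 3.12 and 5.55 CPM after nPM. In males it stood at 3.77, 8.64, 5.13, 11.3 and 7.29 CPM in controls and at 4.35, 5.99, 9.76, 3.56 and 4.45 CPM after nPM. The nPM female 1, control male 4, nPM male 3 and control male 2 held the 4 highest levels, and the groups overlapped in both sexes. The log2 fold change was 0.46 in females (exact permutation p = 0.310) and -0.41 in males (exact permutation p = 0.357). Without the 7 libraries high in Ttr, the fold changes were -0.04 in females and -0.11 in males, and the difference between the sexes was -0.07 (limma-voom p = 0.812, n = 13). That setting leaves 2 control males. With all samples and the choroid plexus marker level as a covariate, the difference passed p under 0.05 by limma-voom (4.79% of all genes). It also passed p under 0.05 by the DESeq2 Wald test (4.86% of all genes), and it was negative in both.

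Slc7a11 (chr3:49892526-50443614, minus strand) had opposite signs in the sexes as well. Control females had 110.4, 67.6, 57.4, 55.9 and 69.9 CPM, and nPM females had 76.1, 95.1, 62.8, 55.7 and 141 CPM. Control males had 138, 126, 72.7, 129 and 91.3 CPM, and nPM males had 88.1, 95.4, 77.9, 99.0 and 105 CPM. The log2 fold change was 0.22 in females and -0.23 in males, with a difference of -0.45 (SE 0.32, limma-voom p = 0.170, n = 20), and levels overlapped in each sex. Without the libraries high in Ttr this difference was -0.05, and without control female 1 it was -0.63 (limma-voom p = 0.0463, n = 19). Control male 3 had the lowest Slc7a11 of the males, and without it the male log2 fold change was -0.37 (limma-voom p = 0.0137, n = 9, where the exact permutation test with all 10 males gave p = 0.270).

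Levels of several genes moved with markers of cell types that a hippocampal dissection can include. Samples were compared by their deviations from the group means in log2 CPM, with permutations within groups and 80 relations between 8 marker lists and the 10 genes. In 4 of the 80 the adjusted permutation p was under 0.05 for both Pearson's r and Spearman's rho. In bulk tissue, fewer cells of a type and less RNA per cell cannot be told apart.

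Nfe2l2 (chr2:75675513-75704641, minus strand) and Nqo1 followed the choroid plexus epithelium, the tissue that secretes cerebrospinal fluid. All 10 markers of its list were measured, none was at 0 throughout, and their summed level was 293 to 988 CPM in control females, 278 to 14170 CPM in nPM females, 247 to 11969 CPM in control males and 365 to 8859 CPM in nPM males. For Nfe2l2, r was 0.91 (adjusted permutation p = 0.002) and rho 0.90 (adjusted permutation p = 0.0036), with r = 0.89 without the 2 samples farthest from the median. For Nqo1, r was 0.86 (adjusted permutation p = 0.0024) and rho 0.88 (adjusted permutation p = 0.00373), with r = 0.85 without those 2. A positive r at least as high was found for 0.748% of the 19797 genes in the case of Nfe2l2 and for 1.61% in the case of Nqo1.

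The single values follow. Nfe2l2 stood at 14.6, 16.2, 13.6, 14.5 and 16.3 CPM in control females and at 21.7, 14.0, 14.9, 16.04 and 20.1 CPM in nPM females. Among males it stood at 14.2, 20.003, 14.1, 22.2 and 16.9 CPM in controls and at 15.9, 19.6, 21.3, 13.5 and 15.6 CPM after nPM. The 7 libraries with Ttr over 1000 CPM held the 7 highest values of Nfe2l2 (16.9 to 22.2 CPM, against 13.5 to 16.3 CPM in the other 13) and also the 7 highest of Nqo1 (5.55 to 12.5 CPM, against 2.98 to 5.13 CPM). Of the other 8 genes, the 7 highest values included between 2 and 5 of these libraries.

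Within the 7 libraries, Nqo1 rose with the marker level (r = 0.98, rho = 0.96, adjusted permutation p = 0.00228 and 0.0121, r = 0.999 without 2 samples). Within the 13 libraries it did not follow it (r = -0.11, rho = -0.11, adjusted permutation p = 0.732 and 0.723, r = -0.67 without 2 samples). For Nfe2l2 the values were r = 0.69 and rho = 0.75 in the 7 (adjusted permutation p = 0.111 and 0.132, r = 0.89 without 2) and r = 0.37 and rho = 0.31 in the 13 (adjusted permutation p = 0.28 and 0.409, r = 0.42 without 2). These 4 relations were computed on log2 CPM itself and chosen after the data were seen. Nqo1 and Nfe2l2 were also related to each other over the 20 samples (r = 0.81, rho = 0.79, adjusted permutation p = 0.00162 and 0.00774 over 9 relations, r = 0.75 without 2), the only one of the 9 other genes whose relation with Nfe2l2 passed. That relation was not found within the sets taken apart, by log2 CPM itself and also chosen after the data were seen. It had r = -0.35 and rho = -0.31 in the 13 libraries (adjusted permutation p = 0.234 and 0.305, r = -0.10 without 2), and r = 0.59 and rho = 0.71 in the 7 (adjusted permutation p = 0.234 and 0.179, r = 0.85 without 2).

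Slc7a11 followed the markers of meningeal fibroblasts, the collagen-producing cells of the brain's coverings. The 10 markers summed to 32.8 to 268 CPM over all samples, with none at 0 throughout. The relation had r = 0.93 (adjusted permutation p = 0.002) and rho = 0.91 (adjusted permutation p = 0.0036), with r = 0.89 without 2 samples. Only 0.0556% of all genes had an r as high, which is 11 genes with Slc7a11 and the markers of the list counted in. In controls the mean log2 CPM of this list was 3.53, 2.52, 1.81, 1.92 and 2.53 in females. It was 3.68, 3.47, 1.79, 3.78 and 2.79 in control males. After nPM it was 3.29, 2.94, 2.03, 1.36 and 4.20 in females and 2.49, 2.98, 2.80, 2.58 and 2.86 in males. The part of such cells in the level of Slc7a11, and in its differences by nPM and by sex, was not tested.

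Gclm moved the other way with microglia, the resident macrophages of the brain (r = -0.80, rho = -0.75, adjusted permutation p = 0.0334 and 0.0082, r = -0.82 without 2 samples). An r as low was found in 0.379% of all genes. The microglial list, with 10 of 10 markers measured, summed to 265 to 419 CPM in females and 343 to 413 CPM in males. The lists of astrocytes, endothelial cells, oligodendrocytes, blood and hippocampal neurons gave no relation that passed. Blood markers were low, at 1.27 to 56.9 CPM in sum, with 3 of 5 above the filter. Hmox1 had its highest r with oligodendrocytes, at 0.73 (rho 0.60, adjusted permutation p = 0.127 and 0.175, r = 0.41 without 2 samples).

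**Figure D3:**
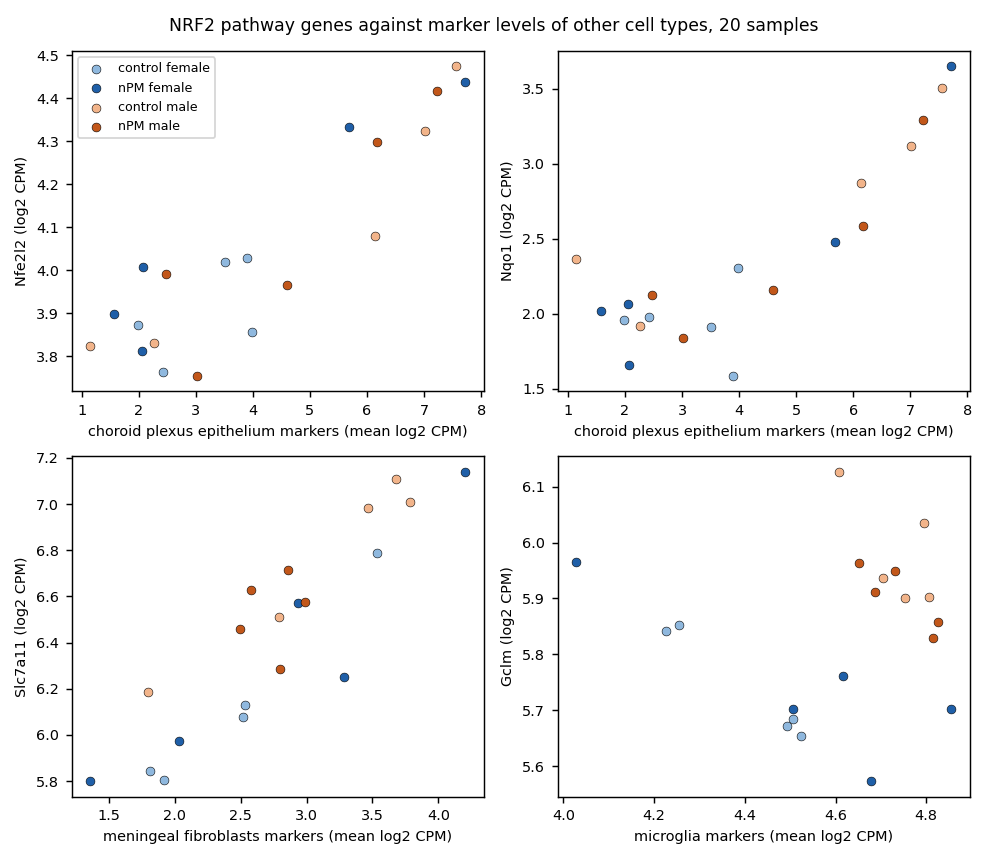
Level of 4 genes (vertical axes, log2 CPM) against the mean log2 CPM of a marker list (horizontal axes) in the 20 samples, colored by group. Nfe2l2 and Nqo1 are highest in the 7 samples at the right of the choroid plexus axis, Slc7a11 rises along the meningeal axis, and Gclm falls along the microglial axis within each group.

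Apart from the relations with Nfe2l2, there were 36 further pairs of members, and none passed the test. The highest r among the 36 were those of Gclc with Gsr (0.76, rho 0.61, adjusted permutation p = 0.0851 and 0.211) and of Gclc with Gclm (0.73, rho 0.54, adjusted permutation p = 0.0851 and 0.235). Without 2 samples they were 0.40 and 0.42. These pairs were added after the data were seen.

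**Figure D4:**
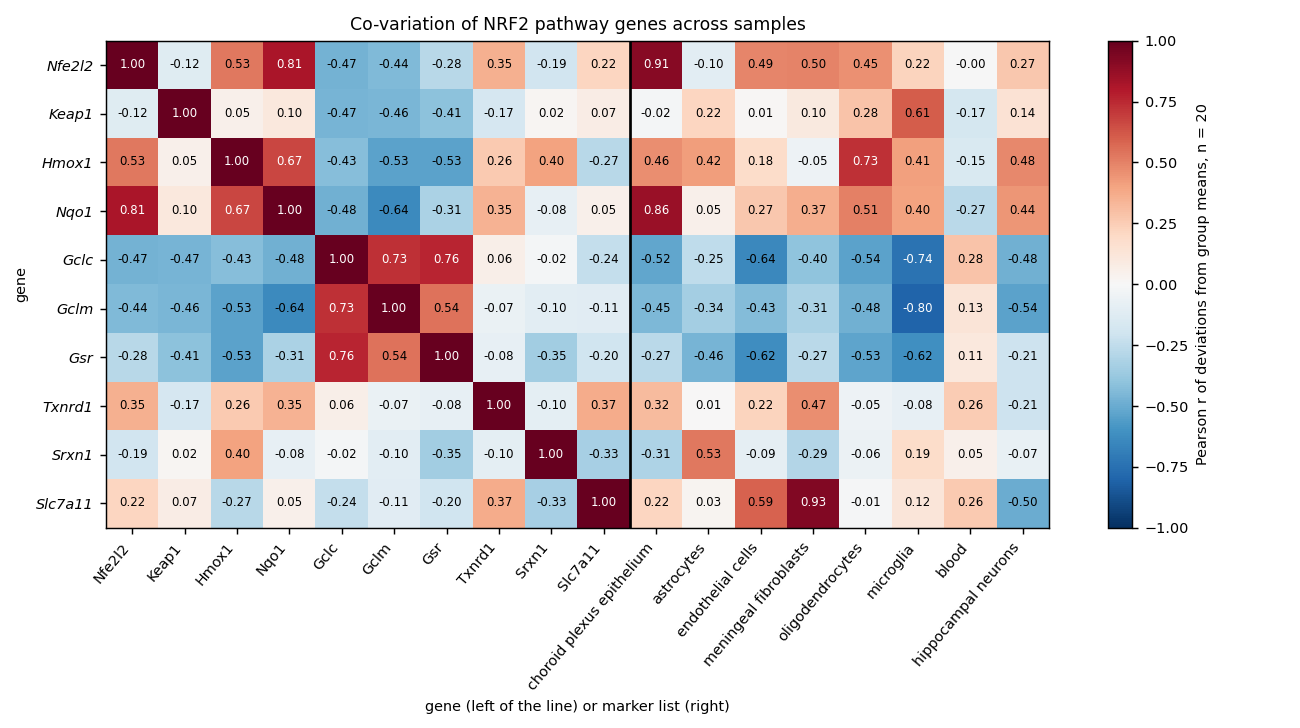
Pearson's r of deviations from the group means (color and number) between the 10 genes, and between the genes and 8 marker lists (right of the line), over 20 samples. Nfe2l2 with Nqo1 (0.81), both with the choroid plexus list (0.91 and 0.86), Slc7a11 with the meningeal list (0.93) and Gclm with the microglial list (-0.80) are those that passed.

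Sex is the other factor of the design, and it gave more calls among these genes than nPM did. All 10 were higher in males, as were 52.2% of all genes, with a median log2 difference of 0.12 against 0.019 over all genes. Nfe2l2, however, was at -0.03 with the choroid plexus marker level as a covariate and at -0.02 without the libraries high in Ttr. By limma-voom with exposure as a covariate, 1 of the 10 reached p under 0.005, where 31.1% of all genes did and 13.9% did so with a higher level in males. At p under 0.05 there were 3, all higher in males, against 48.4% of all genes and 23.3% with a higher level in males. Left-out libraries gave 2 to 5 calls at p under 0.05. There were 5 without control male 2 (47.1% of all genes) or nPM female 1 (49.2%), and 2 without nPM male 4 (47.2%). In the whole table, 40.4% of genes had an adjusted p under 0.05. Markers of endothelial cells moved with sex, with a summed level of 238 to 346 CPM in females and 184 to 232 CPM in males, without overlap. In mean log2 CPM the same list did overlap, with the lowest nPM female at 4.07 and the highest control male at 4.09. The mean log2 CPM of the microglial markers was 4.23 to 4.52 in control females and 4.61 to 4.81 in control males, without overlap, and 4.03 to 4.86 in nPM females and 4.65 to 4.83 in nPM males, with overlap. By summed level the microglial markers overlapped in controls, at up to 350 CPM in females and from 343 CPM in males. The mean log2 CPM of the oligodendrocyte markers was 7.33 to 7.69 in control females and 6.94 to 8.01 in control males, with overlap. It was 7.18 to 7.65 in nPM females and 7.57 to 8.18 in nPM males, also with overlap. The part of these cell types in the differences was not tested.

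Gclm (chr3:122245557-122270732, plus strand) had the clearest difference. In controls it stood at 51.0, 57.3, 57.8, 51.4 and 50.3 CPM in females and at 69.8, 61.2, 59.8, 59.8 and 65.5 CPM in males. After nPM it stood at 47.6, 52.0, 52.1, 62.5 and 54.2 CPM in females and at 61.7, 58.0, 56.9, 62.4 and 60.2 CPM in males. Every control male was above every control female, whereas nPM female 4 was the highest of the nPM samples. The log2 difference was 0.20 (SE 0.049, limma-voom p = 0.000449, n = 20, adjusted p = 0.00237), or 1.15-fold. It was 0.24 within controls (exact permutation p = 0.00794, the smallest possible) and 0.16 within nPM (exact permutation p = 0.0556). Without the libraries high in Ttr it was 0.23 (limma-voom p = 0.00519, n = 13), just past the 0.005 limit, and p stayed under 0.005 when any 1 library was left out.

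The promoter window of Gclm is shown for comparison with that of Srxn1, with the match to TGACNNNGC in capitals.
Gclm promoter, chr3:122245307-122245556, plus strand: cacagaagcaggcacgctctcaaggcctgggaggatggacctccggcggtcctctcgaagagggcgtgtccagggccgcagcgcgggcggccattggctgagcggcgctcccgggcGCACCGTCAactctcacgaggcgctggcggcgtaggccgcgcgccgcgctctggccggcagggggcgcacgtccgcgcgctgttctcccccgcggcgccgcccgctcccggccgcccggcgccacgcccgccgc
The match lies on the minus strand as TGACGGTGC, with its base farthest from the start at -134. In Gencode M21, exons of Gclm share 296 bases with the antisense transcript Gm17494 and 244 bases with the pseudogene Gm6061 on the same strand. Keap1 shares 510 exon bases with the antisense transcript Gm16754. Gm6061 lies on the same strand, so no strand setting separates its reads from those of Gclm. For Gm17494 and Gm16754 the strand setting of the counting, on which this depends, is not given in the sources used here.

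Slc7a11 and Keap1 were the other genes past p under 0.05. Slc7a11 was 1.32-fold higher in males (log2 difference 0.41, limma-voom p = 0.0208, n = 20, adjusted p = 0.0513), and without nPM female 5, the highest female, the log2 difference was 0.52 (limma-voom p = 0.0014, n = 19). With sample quality weights it was 0.28 (limma-voom p = 0.0937, n = 20). Slc7a11 followed the meningeal markers, as given above, and the part of those cells in this difference was not tested. Keap1 (chr9:21229730-21239332, minus strand) was 1.08-fold higher (log2 difference 0.12, limma-voom p = 0.0301, n = 20, adjusted p = 0.0686). Without the libraries high in Ttr it was 0.15 (limma-voom p = 0.0709, n = 13), and p was also above 0.05 without any 1 of control females 2 and 4, nPM female 4 and nPM male 4. Its mean was 37.9 ± 2.95 CPM in control females and 41.6 ± 1.70 CPM in control males (SD, n = 5). Srxn1 (0.12, limma-voom p = 0.0547), Gsr (0.11, limma-voom p = 0.0608) and Gclc (0.09, limma-voom p = 0.0839) had positive differences that did not pass (n = 20). Nqo1 had a log2 difference of 0.39 (limma-voom p = 0.138, n = 20), which was 0.06 with the choroid plexus marker level as a covariate.

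The difference between the sexes was seen in more of the genes among controls than among nPM mice. Within controls, 5 of the 10 had an exact permutation p under 0.05 (38.9% of all genes), and within nPM mice 1 of the 10 did (28.1% of all genes). The 5 were Gclc and Gclm (each p = 0.00794), Gsr (p = 0.0159), Nqo1 (p = 0.0317) and Slc7a11 (p = 0.0397), and the 1 was Srxn1 (p = 0.0397), all by exact permutation. The Ttr level was over 1000 CPM in 3 of the control males and in none of the control females. Without these 3, in a comparison added after the data were seen, Gclc, Gclm and Gsr had an exact permutation p of 0.0476. That is the smallest value that 2 males against 5 females allow. The 3 genes did not overlap between the sexes, and the share of all genes without overlap here was not computed. Of the 2 males left, control male 1 had the highest Gclc, Gclm and Gsr of the control males (72.0, 69.8 and 29.6 CPM). Nqo1 then stood at 3.77 and 5.13 CPM in the males against 2.98 to 4.92 CPM in the females (log2 difference 0.19, exact permutation p = 0.381), and Slc7a11 had 0.52 (exact permutation p = 0.143), both with overlap. With all control samples, 2 of the 10 did not overlap between the sexes, Gclc and Gclm, against 19.8% of all genes, and in nPM mice none did, against 11.2%. Gclc (chr9:77754535-77794485, plus strand) had 57.4, 55.9, 60.2, 58.7 and 50.7 CPM in control females and 72.0, 60.5, 63.2, 60.9 and 61.1 CPM in control males. In nPM mice it had 56.3, 59.0, 56.1, 71.1 and 55.1 CPM in females and 62.4, 60.8, 57.4, 60.3 and 58.7 CPM in males. The test of this change in the sex difference is the interaction given above, which no member passed (Gclc -0.14, limma-voom p = 0.175, n = 20), so a smaller sex difference after nPM was not shown.

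**Figure D5:**
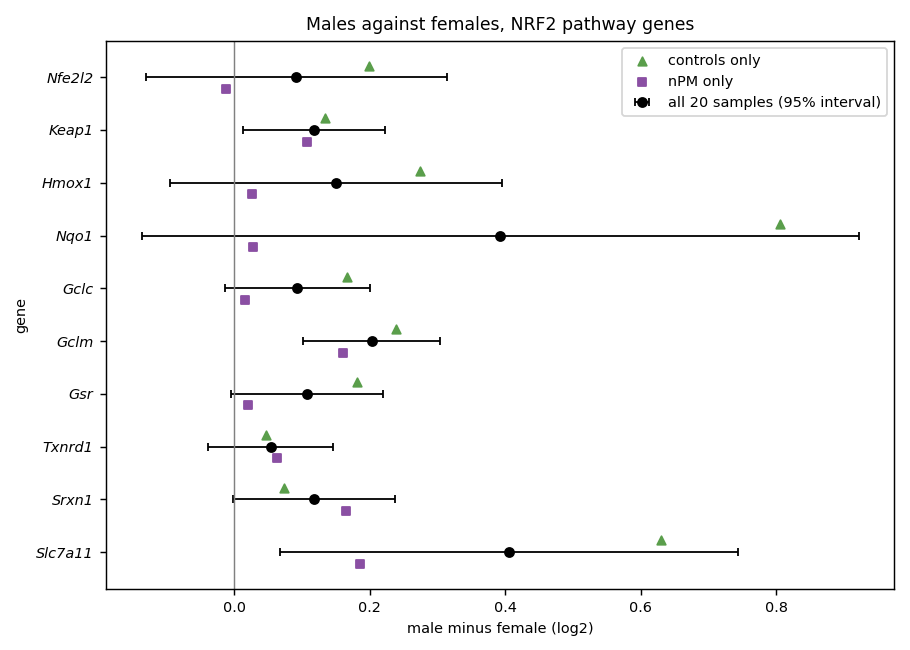
Log2 difference of males over females (horizontal axis) for each gene over all 20 samples with the 95% interval from limma-voom (black circles), and as a difference of means within controls (green triangles) and within nPM mice (purple squares). All black circles lie right of 0; the triangles of Nqo1 (0.81) and Slc7a11 (0.63) lie farthest out.

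The wider pathway was read from 52 further genes, of which 51 passed the filter (Osgin1 did not). With nPM in both sexes, 0 rose and 1 fell at p under 0.05 by limma-voom (1.96% of the 51, 2.10% of all genes). The 1 was Glrx, a glutaredoxin (-0.20, limma-voom p = 0.0371, n = 20). In males, 0 rose and 6 fell, which is 11.8% of the 51 against 4.28% of all genes, with a median log2 fold change of -0.061. They included the membrane glutathione transferase Mgst3 (-0.31, p = 0.0150), the aldehyde reductase Akr1a1 (-0.17, p = 0.0211) and the NADPH source Idh1 (-0.28, p = 0.0227; limma-voom, n = 10). Mgst3 went from 43.0 ± 6.02 CPM in control males to 34.8 ± 3.85 CPM in nPM males (SD, n = 5). In females 1 rose and 0 fell, which is 1.96% of the 51 against 2.00% of all genes. The 1 was Gsta4, a glutathione transferase for lipid aldehydes (0.28, limma-voom p = 0.00642, n = 10), which went from 22.1 ± 1.34 to 26.7 ± 2.44 CPM. None of these had an adjusted p under 0.05 in limma-voom, and none reached p under 0.005 with nPM. Without the libraries high in Ttr, a setting added after the data were seen, the list had 0 calls in both sexes (1.28% of all genes). There were 1 up and 4 down in males (9.80% of the list, 6.58% of all genes). In females there was 1 up, Gsta4 (1.96% of the list, 2.26% of all genes). With the choroid plexus marker level as a covariate, also added after the data were seen, males had 1 up and 6 down. That is 13.7% of the list, against 5.82% of all genes. Under this covariate there were 0 up and 1 down in both sexes (1.96% of the list, 2.36% of all genes). Females had 1 up, again Gsta4 (1.96% of the list, 1.89% of all genes).

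The interaction was passed by 3 of the 51 at p under 0.05 (5.88%, against 3.79% of all genes). All 3 had the lower response in males. They were Gsta4 (-0.42, limma-voom p = 0.00471, the only one under 0.005), Idh1 (-0.44, limma-voom p = 0.0124) and the heme synthesis enzyme Fech (-0.23, limma-voom p = 0.0223), with n = 20. Their adjusted p was 0.987 in each case. Between the sexes, 24 of the 51 were higher and 4 lower in males at p under 0.05, or 54.9% against 48.4% of all genes. Gsta4 (0.49), Akr1a1 (0.36) and Bach2, a repressor at antioxidant response elements (-0.60), had the smallest p, each with an adjusted limma-voom p at or below 0.000102. Without the libraries high in Ttr, the sexes differed in 18 up and 4 down (43.1% of the list, 34.8% of all genes). The interaction then had 1 up and 4 down (9.80% of the list, 7.92% of all genes), with Gsta4, Idh1 and Fech among the 5. With the choroid plexus covariate the interaction had 1 up and 5 down (11.8% of the list, 4.79% of all genes). The sexes then differed in 25 up and 7 down (62.7% of the list, 48.7% of all genes). By class at p under 0.05, 7 of 12 genes of glutathione synthesis and use were higher and 1 lower in males, with 4 higher and 1 lower of 7 in the thioredoxin system, and 3 higher and 2 lower of 11 among partners and repressors of NRF2. In heme and iron metabolism 5 of 6 were higher, in NADPH supply 3 of 6, and in detoxication 2 of 9, with none lower in these. Of all genes, 23.3% were higher in males at this limit.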

How the data were processed

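Hippocampal RNA of 20 mice was sequenced. The authors depleted ribosomal RNA, trimmed adapters where needed (Trimmomatic), aligned reads to mm10 with HISAT2, counted them per gene on Gencode M11 with featureCounts 1.5.0-p3, and deposited whole-number counts for 48709 genes. The authors also deposited each gene's length and mean RPKM, against which the RPKM values computed here were checked.

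Here, TMM factors (edgeR 4.0.16) and filterByExpr (minimum count 10, minimum total 15) preceded limma-voom (limma 3.58.1, R 4.3.3, offset 0.5), fitted on all 19797 genes kept. Thresholds were p under 0.005, as in the study, and p under 0.05. Exact tests (252 groupings) and 100000 permutations used Python 3.11.15 and scipy 1.17.1; intervals cover 95%. Total counts of 19092067 to 38663408 limit Hmox1 and Nqo1 most. Alternatives included edgeR's quasi-likelihood test and DESeq2 1.42.0, and the fits were tested on simulated data.

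All 10 genes are named, with the 3 smallest p of the wider list in each fit among those under 0.05. Members and lists were chosen with earlier results of these data known. P-values measure the spread between mice, of which some may share a litter. No library duplicated another of its own group (40 pairs checked). Promoters are from RefSeq (GRCm38.p6), and overlaps from Gencode M21.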

Additional observations from a re-analysis of the deposited data

Results flagged for a closer look

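In each of the 40 combinations of gene and group, the sample farthest out was compared with its group, a rule that by chance picks about 1 in 20. It picked 3. Hmox1 was lowest in control male 1, at 2.39 CPM, with a gap to its nearest neighbour of 0.742 of the range of the group. Gclc was highest in control male 1, at 72.0 CPM, with a gap of 0.747 of the range. Gclc was also highest in nPM female 4, at 71.1 CPM, with a gap of 0.732. Control male 1 also had the highest Gsr and Gclm of its group (29.6 and 69.8 CPM), and nPM female 4 had the highest Gsr and Gclm of its group (28.9 and 62.5 CPM). Both libraries had the lowest levels of microglial and oligodendrocyte markers in their groups. Control male 1 also had the lowest neuronal and the highest blood marker level of its group, and nPM female 4 the lowest astrocyte, endothelial and meningeal ones. Each of the 2 libraries also had the lowest total counts of its group (28026459 for control male 1 and 19092067 for nPM female 4). Their TMM factors (0.958 and 0.960) were the lowest of their groups too. What sets them apart was not tested. The interaction of sex and nPM gave 0 of the 10 genes past p under 0.005 by limma-voom, and 0 at an unadjusted p under 0.05.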

How the results depend on the processing

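At p under 0.005, the counts of members called kept their side of the threshold for nPM and the interaction under every alternative run. For males against females the count was 1, against 31.1% of all genes. Without the 7 libraries high in Ttr it was 0, against 14.5% of all genes (Gclm 0.23, limma-voom p = 0.00519, n = 13). When 1 library was left out it was 1 to 2. It was 2 without nPM female 5, against 28.8% of all genes. There Slc7a11 had a log2 difference of 0.52 (limma-voom p = 0.0014, n = 19).

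At p under 0.05, the 1 call with nPM in both sexes was Srxn1, against 2.10% of all genes. The count became 0 with no filter on low counts (2.54% of all genes). It was also 0 with the replicate block (1.99%) and without the libraries high in Ttr (1.28%). Over single libraries left out it ranged from 0 to 1 (1.75% to 3.74% of all genes). It was 0 without control females 2 or 4, control male 3, nPM females 2, 4 or 5, and nPM males 3 or 5. The count in males was 0 to 1 (1 without control male 3, Slc7a11, against 4.68% of all genes). In females it was 1 with sample quality weights (3.22% of all genes), and 0 to 1 over libraries left out. It was 1 without control female 3 (1.34% of all genes), and the gene was Srxn1 in each case. For the interaction it was 1 with the DESeq2 Wald test (4.86% of all genes), for Nqo1. It was also 1, again for Nqo1, with the choroid plexus marker level as a covariate (4.79%). Over libraries left out it was 0 to 1. It was 1 without control female 1 (5.11%), control male 1 (3.76%) or nPM male 3 (4.42%). For males against females it was 5 with quality weights (51.7% of all genes) and 5 with the choroid plexus covariate (48.7%). Over libraries left out it was 2 to 5. It was 5 without control male 2 (47.1%) or nPM female 1 (49.2%), and 2 without nPM male 4 (47.2%). It was 4 with no filter on low counts (34.7% of all genes). It was 3 under the other alternatives, the setting without the libraries high in Ttr included (34.8% of all genes in that setting). Slc7a11 lost its call with quality weights (0.28, limma-voom p = 0.0937, n = 20), and Keap1 without the libraries high in Ttr (0.15, limma-voom p = 0.0709, n = 13).

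Without the libraries high in Ttr, 7 interaction values moved by more than the spread between replicates: Nfe2l2 to 0.06, Hmox1 to 0.02, Nqo1 to -0.07, Gclc to -0.29, Gsr to -0.31, Txnrd1 to 0.13 and Slc7a11 to -0.05. That setting leaves 2 control males. Of 1280 values of single genes, 1271 stayed on their side of p under 0.005 and, where not past it, moved by less than 1 SD between replicates. The sign changed in 78 of the 1280, none of which had passed that limit. The cause was not tested. The choroid plexus covariate and the Ttr limit were added after the data were seen.

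The replicate numbers did not pair the samples: over 10 same-numbered pairs of one sex, deviations correlated at -0.364 to 0.157, with 3 over 0.1, and 0 samples matched their own number best. With the replicate block, Srxn1 had -0.13 (limma-voom p = 0.0568, n = 20), and it was the only member that lost a call under it. Age as a covariate was not run for males against females, because ages of the sexes did not overlap, and 1 fit of the 4 groups is already the fit of the interaction. Depth limits Hmox1 and Nqo1 most.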
